A study of Mus musculus with 40 samples.

Results

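Imprinted genes are transcribed mainly from the copy inherited from one parent, under DNA methylation marks set in the germ line. Several of them are known for their link to the resting state of haematopoietic stem cells (HSCs). The maternally expressed RNAs Meg3, Rian and Mirg come from a single imprinted locus that also holds a large miRNA cluster, and H19 is a maternally expressed RNA of the Igf2 locus. Igf2r takes up and clears IGF2, and Grb10 is an adaptor that restrains signalling from the insulin and IGF1 receptors. Ndn (necdin) is a growth suppressor of the MAGE family, Peg3 and Plagl1 encode zinc finger proteins, and Mest encodes a hydrolase-like protein.

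These 10 genes were followed in RNA-seq libraries of HSCs and multipotent progenitors (MPPs), chosen as the rows of 6 expression tables that carry their symbols. All 10 had a row in the HSC table (of 26640 rows) and in the GFP-high HSC table (of 16488). The MPP table (26598 rows) and the GFP-low HSC table (16476) held 9 of them, the GFP-high MPP table (16491) held 8 and the GFP-low MPP table (16344) held 7. Plagl1 had no row in any MPP table, H19 none in the GFP-high and GFP-low MPP tables, and Mirg none in either GFP-low table.

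The 40 libraries were made from bone marrow of adult C57BL/6 mice, labelled WT or HIRA KO. HIRA is a histone chaperone that deposits the variant H3.3 independently of DNA replication. The KO groups were obtained by deleting the floxed gene (Hira fl/fl) with Mx1-Cre, a recombinase driven by an interferon-responsive promoter that is not restricted to stem cells. The labels give the same treatment of 2 doses of 20 µg poly(I:C) for all samples, WT included, and do not spell out the full genotype of the WT mice. In the first cohort, 2500 cells of each kind were taken 1 week from the initial dose, giving 4 groups of 4 libraries: WT HSC, KO HSC, WT MPP and KO MPP. The H2B-GFP cohort also carried Rosa26-M2rtTA and TetOP-H2B-GFP, which load chromatin with GFP under doxycycline and lose it as cells divide. These mice had a doxycycline pulse of 6 weeks (2 mg/ml, with sucrose at 10 mg/ml) and a chase of 17 days, and were killed 15 days from the second poly(I:C) dose. Their HSCs and MPPs were sorted as GFP-high (fewer divisions) or GFP-low, giving 8 groups of 3 libraries. The labels call the replicates biological but do not say whether HSCs and MPPs, or GFP-high and GFP-low cells, came from the same mice, so results of different populations may not be independent.

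Depth, recovered from the steps of the values, was 18280000 to 32530000 reads per library in the first cohort and 5870000 to 9650000 reads in the H2B-GFP cohort. Slamf1, which marks HSCs, lay at 5.20 to 7.05 FPKM (reads scaled to the length of the gene and the depth of the library) in HSC libraries against 0.0754 to 0.563 FPKM in MPP libraries of the first cohort. In the H2B-GFP cohort it lay at 6.67 to 12.6 FPKM in HSCs and 0.0883 to 0.821 FPKM in MPPs, and Flt3, an MPP marker, was at 1.49 to 6.98 FPKM in HSC libraries and 18.7 to 60.2 FPKM in MPP libraries of both cohorts. Not all HSC markers stood this way. Hlf had WT means of 28.8 FPKM in HSCs and 54.8 FPKM in MPPs of the first cohort. The sum of 14 HSC markers there was 371 to 459 FPKM in WT HSCs and 395 to 470 FPKM in WT MPPs. Hira itself lay at 1.25 ± 0.362 FPKM in WT HSCs and 1.11 ± 0.275 FPKM in the HSCs labelled KO (SD, n = 4 each), with overlapping groups in all 6 tables. The values sum over all exons, deleted or not, so this level does not check the labels, and the groups are called labelled KO below. Genotypes were tested within a table, or as a difference between the effects in a pair of tables, and levels were not tested between tables, because each table was scaled on its own.

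Of the sequences that bear on the values below, the start of Meg3 and the miRNAs made from Meg3, H19 and Mest are shown, since miRNAs are a main known product of these RNAs. In RefSeq (GRCm38.p6), the promoter window of Meg3 (250 bases before to 50 after its start, plus strand, chr12:109540746-109541045) reads as follows. Capitals mark a CRE palindrome (TGACGTCA) and a ZFP57 hexamer (TGCCGC, here on the opposite strand as GCGGCA).
Meg3: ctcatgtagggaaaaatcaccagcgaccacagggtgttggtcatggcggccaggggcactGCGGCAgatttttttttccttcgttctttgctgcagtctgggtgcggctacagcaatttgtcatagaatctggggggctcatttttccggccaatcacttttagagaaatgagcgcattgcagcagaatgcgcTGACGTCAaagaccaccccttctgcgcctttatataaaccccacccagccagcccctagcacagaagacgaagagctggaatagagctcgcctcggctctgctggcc
The 250 bases before the start of Peg3 (minus strand, chr7:6730420-6730669) hold the same palindrome, again in capitals.
Peg3: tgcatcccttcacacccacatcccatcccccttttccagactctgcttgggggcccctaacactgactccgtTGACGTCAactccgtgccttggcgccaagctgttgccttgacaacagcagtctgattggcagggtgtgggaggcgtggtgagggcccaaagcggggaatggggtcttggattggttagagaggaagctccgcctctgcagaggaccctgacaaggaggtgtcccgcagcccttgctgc
The palindrome begins 57 bases before the start of Meg3 and 178 bases before that of Peg3. It is present in 588 of 32851 RefSeq windows of this length (1.79%), and in 2 of the 13 windows that the table holds for 9 of the genes. The hexamer is present in 11.6% of all windows and in 5 of those 13, of which 2 are windows of Mest shifted by 3 bases against each other. Both motifs were searched on both strands, and they do not overlap each other in the Meg3 window. A match describes the letters only.

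The mature miRNAs placed inside Meg3, H19 and Mest by RefSeq are, with the seed (bases 2 to 8) in capitals:
mmu-miR-1906 (Meg3): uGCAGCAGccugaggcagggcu
mmu-miR-770-5p (Meg3): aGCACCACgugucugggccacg
mmu-miR-770-3p (Meg3): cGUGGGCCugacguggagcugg
mmu-miR-675-5p (H19): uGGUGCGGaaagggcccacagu
mmu-miR-675-3p (H19): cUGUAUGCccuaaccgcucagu
mmu-miR-335-5p (Mest): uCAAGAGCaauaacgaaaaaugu
mmu-miR-335-3p (Mest): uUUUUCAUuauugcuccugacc
Rian holds 6 mature miRNAs and Mirg 26, and the whole stretch from the start of Meg3 to the end of Mirg (chr12:109541001-109749460, mm10) holds 112 with 102 different seeds. Within Mirg, miR-453 and miR-496a-5p share a seed:
mmu-miR-453 (Mirg): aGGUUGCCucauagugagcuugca
mmu-miR-496a-5p (Mirg): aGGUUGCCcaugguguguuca
The libraries were made from polyA RNA, so mature miRNAs were not measured, and only the level of the host RNAs is given here.

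The 10 genes fell into 3 levels. Ndn, Grb10 and Igf2r were the ones that reached 1 FPKM in as many libraries as the smaller group (4 in the first cohort, 3 in the H2B-GFP cohort) in all 6 tables, and they rested on 66 to 2108 reads per library. Meg3 was found in all 40 libraries but at 0.0325 to 1.29 FPKM and 8 to 319 reads. Rian, Mirg, H19, Mest, Peg3 and Plagl1 stayed at or under 0.561 FPKM, with at most 113 reads. Of the libraries with a row, Mirg was at 0 in 16 of 28, H19 in 15 of 28, Peg3 in 12 of 40, Mest in 7 of 40, Plagl1 in 6 of 20 and Rian in 2 of 40. The plot of reads by library shows these 3 levels.

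**Figure D1:**
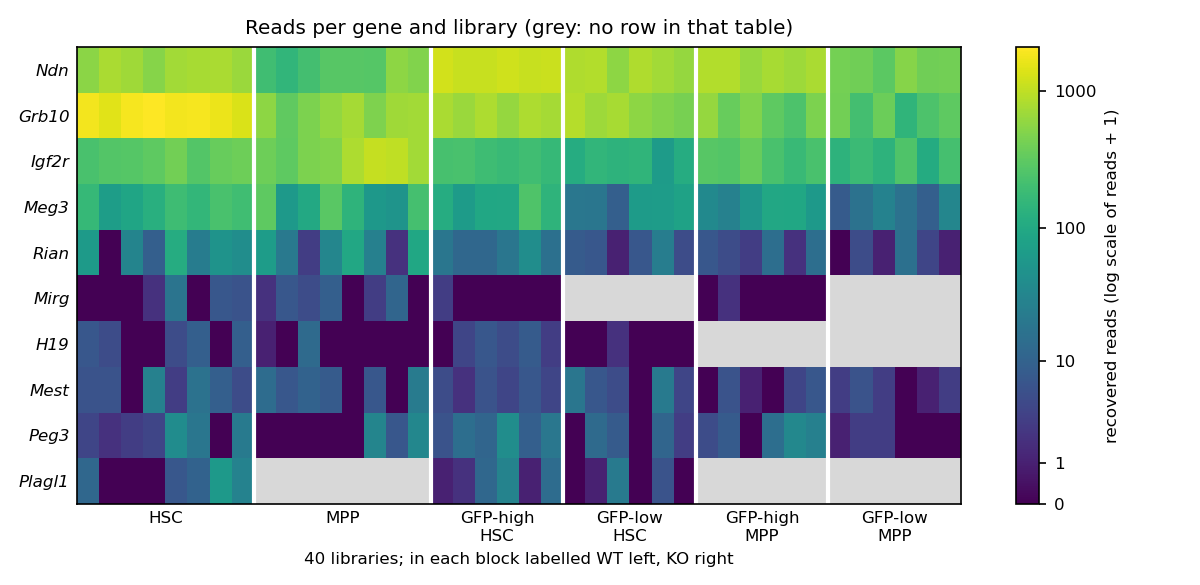
Recovered reads of the 10 imprinted genes (rows) in the 40 libraries (columns, grouped by population, labelled WT on the left of each block and KO on the right), on a log colour scale of reads plus 1. Ndn, Grb10 and Igf2r hold 66 to 2108 reads per library, Meg3 holds 8 to 319, and the other genes hold 0 in many libraries. Grey marks a gene with no row in that table.

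Set side by side, Ndn and Grb10 had higher means in HSCs than in MPPs in both cohorts, and Igf2r had a lower mean. Because the tables were scaled separately these levels carry no test, and the ratios were also computed under 2 common scalings. Over all genes the median difference between the HSC and MPP tables was at most 0.03 on the log2(FPKM + 1) scale, under each scaling. Since these are bulk samples, more cells of a type and more RNA per cell cannot be told apart.

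Grb10 (chr11:11930508-12038683, minus strand, mm10, protein coding), the adaptor that restrains insulin and IGF1 receptor signalling, had the largest ratio of the 3 better expressed genes in the first cohort. It ranged from 5.99 to 8.62 FPKM in the 8 HSC libraries and from 1.61 to 2.77 FPKM in the 8 MPP libraries. Every HSC library was above every MPP library, a separation shown by 2.29% of 13166 genes tested in both tables. The means were 7.04 ± 0.881 and 2.19 ± 0.428 FPKM (SD, n = 8 each), a ratio of 3.22 as deposited and 3.21 to 3.27 under the common scalings. The ratio was 3.55 among WT libraries and 2.91 among those labelled KO.
In the H2B-GFP cohort the separation was again complete. GFP-high HSCs lay at 5.66 to 8.36 FPKM against 2.51 to 4.52 FPKM in GFP-high MPPs (ratio 2.01), where 1.52% of 10512 genes separated in this direction. GFP-low HSCs lay at 4.94 to 8.12 FPKM against 1.21 to 3.80 FPKM in GFP-low MPPs (ratio 2.25), where 1.43% of 10314 genes did.

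Ndn (chr7:62346569-62350262, plus strand, protein coding), a growth suppressor, had a mean of 6.90 ± 1.26 FPKM in HSCs and 2.80 ± 1.02 FPKM in MPPs of the first cohort (SD, n = 8 each), a ratio of 2.47. With genotypes pooled, the HSC minimum of 4.91 FPKM (WT) lay just under the MPP maximum of 4.92 FPKM (labelled KO). Within each genotype, with 4 libraries a side, the groups did not overlap. The share of all genes that separate within a genotype is not given here. Among WT libraries the HSC minimum of 4.91 FPKM lay above the MPP maximum of 2.37 FPKM (ratio of means 2.99). Among those labelled KO, the HSC minimum of 6.27 FPKM lay above the MPP maximum of 4.92 FPKM (ratio 2.13). Under both common scalings the pooled groups no longer overlapped, with ratios of 2.46 and 2.52.
In the H2B-GFP cohort the populations stood in the order GFP-high HSC (28.1 ± 2.71 FPKM), GFP-low HSC (17.5 ± 1.86 FPKM), GFP-high MPP (16.9 ± 1.96 FPKM) and GFP-low MPP (9.41 ± 1.45 FPKM; SD, n = 6 each). The neighbours GFP-low HSC and GFP-high MPP did not differ beyond their spread. Every GFP-high HSC library was above every GFP-high MPP library (ratio 1.66), and every GFP-low HSC library was above every GFP-low MPP library (ratio 1.86).
With genotypes pooled, the gene was also the one member that separated GFP-high from GFP-low cells in HSCs and in MPPs alike. In HSCs, 23.8 to 32.0 FPKM in GFP-high libraries stood against 15.0 to 19.5 FPKM in GFP-low libraries (ratio 1.60), a separation that 0.828% of 10501 genes showed. In MPPs, 14.3 to 19.5 FPKM stood against 7.59 to 11.6 FPKM (ratio 1.80), which 0.672% of 10417 genes showed. In HSCs the ratio was 1.59 in WT and 1.60 in labelled KO libraries, and in MPPs it was 1.99 and 1.65. In GFP-high HSCs its mean stood above that of 86.3% of the genes tested, against 49.1% in HSCs of the first cohort. The cohorts were annotated with different gene models, so their FPKM levels are not compared further.

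Igf2r (chr17:12682406-12769664, minus strand, protein coding), the receptor that clears IGF2, went the opposite way. In the first cohort it had 1.21 ± 0.236 FPKM in HSCs and 2.35 ± 0.8 FPKM in MPPs (SD, n = 8 each), a ratio of 0.516 (0.515 and 0.531 under the common scalings). As deposited, the ranges of 0.936 to 1.65 and 1.45 to 3.50 FPKM overlapped, and with libraries set to 1 FPKM total they did not. Within each genotype the deposited ranges did not overlap. WT libraries lay at 0.936 to 1.17 FPKM in HSCs and 1.45 to 1.88 FPKM in MPPs. Those labelled KO lay at 1.02 to 1.65 FPKM in HSCs and 2.23 to 3.50 FPKM in MPPs. In the H2B-GFP cohort the ratio of HSCs to MPPs was 0.845 in GFP-high and 0.725 in GFP-low cells. With genotypes pooled the libraries overlapped (0.702 to 1.98 FPKM over all HSCs and 1.10 to 3.11 FPKM over all MPPs). Among WT GFP-high libraries they did not, at 1.88 to 1.98 FPKM in HSCs and 2.05 to 3.11 FPKM in MPPs (ratio 0.770). The other comparisons of HSCs and MPPs within a genotype overlapped in this cohort. GFP-high HSCs (1.77 to 1.98 FPKM) were all above GFP-low HSCs (0.702 to 1.44 FPKM, ratio 1.67). With genotypes pooled, the libraries of GFP-high and GFP-low MPPs overlapped (ratio 1.43). WT GFP-high MPPs (2.05 to 3.11 FPKM) were all above WT GFP-low MPPs (1.10 to 1.58 FPKM, ratio 1.84). Those labelled KO overlapped (ratio 1.12). The splits within a genotype rest on 3 or 4 libraries a side, and the share of all genes that show them is not given here.

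Meg3 (chr12:109541001-109571726, plus strand, lincRNA) showed no such order between HSCs and MPPs of the first cohort, with 0.314 ± 0.123 and 0.299 ± 0.224 FPKM (SD, n = 8 each). These means pool genotypes that leaned opposite ways, with a ratio of 0.592 among WT and 1.96 among labelled KO libraries. In the H2B-GFP cohort its mean was highest in GFP-high HSCs (0.643 ± 0.353 FPKM), then in GFP-high MPPs (0.288 ± 0.159 FPKM), GFP-low HSCs (0.223 ± 0.177 FPKM) and GFP-low MPPs (0.0889 ± 0.0506 FPKM; SD, n = 6 each). With genotypes pooled, the neighbours in that order overlapped in every case. Among WT libraries alone, GFP-low HSCs had a lower mean than GFP-low MPPs (0.0686 and 0.0855 FPKM). Among those labelled KO they had a higher mean (0.377 and 0.0922 FPKM). GFP-high HSCs stood above GFP-low HSCs without overlap in each genotype (ratio 6.15 in WT and 2.29 in labelled KO libraries). GFP-high HSCs also stood above GFP-high MPPs without overlap in each genotype, by a thin margin. In WT the lowest HSC library had 0.281 FPKM and the highest MPP library 0.247 FPKM. Among those labelled KO these were 0.525 and 0.486 FPKM. Each of these splits within a genotype sets 3 libraries against 3, and the share of all genes that show them is not given here. The plots of level by library show both patterns.

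**Figure D2:**
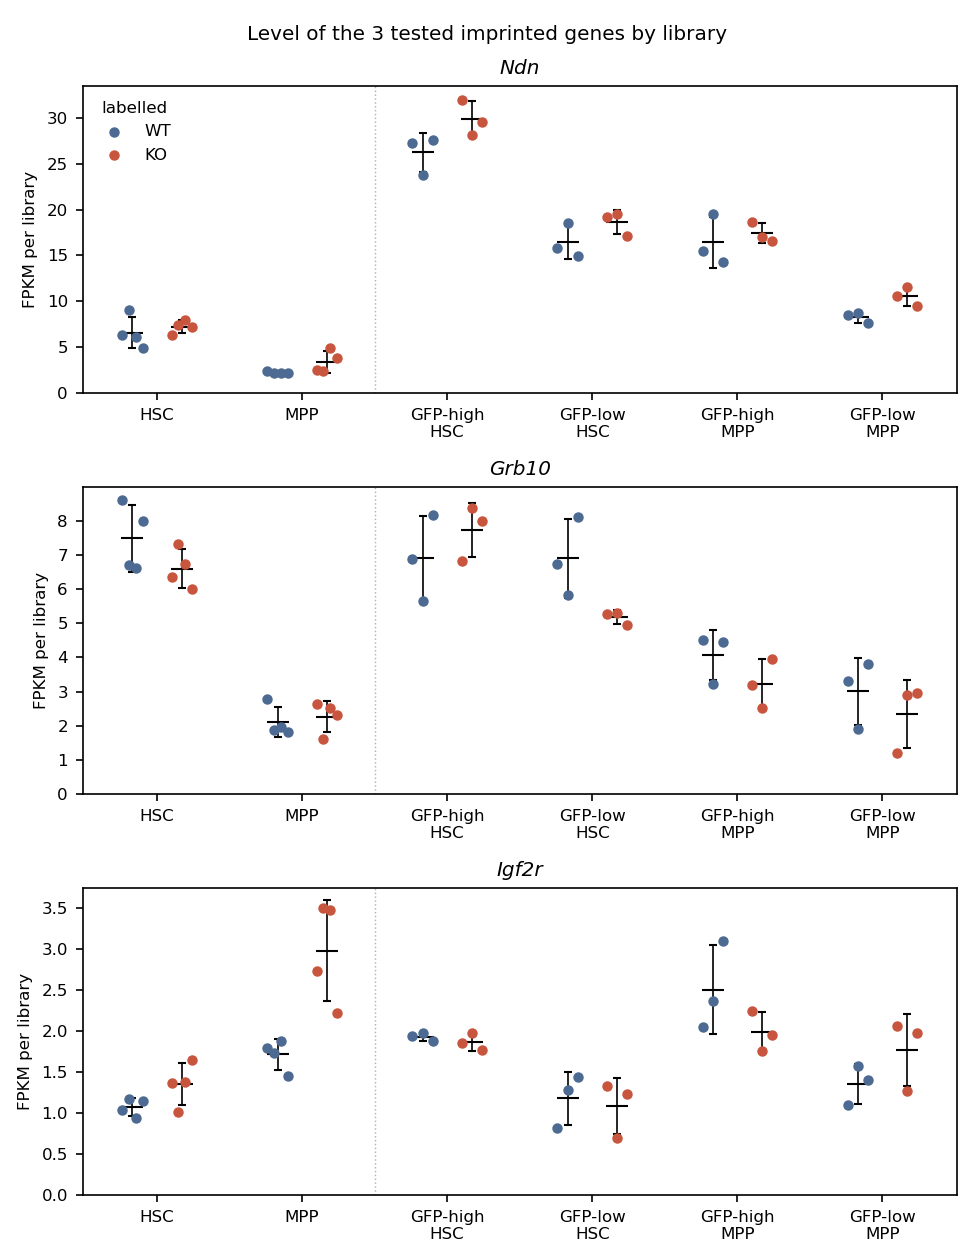
FPKM per library of Ndn, Grb10 and Igf2r in the 6 populations (points; blue labelled WT, red labelled KO; black bars mean ± SD, n = 4 per group left of the dotted line and n = 3 right of it). Ndn and Grb10 stand higher in HSCs than in the matched MPPs, Igf2r in labelled KO MPPs lies at 2.23 to 3.50 FPKM above the WT libraries, and levels left and right of the dotted line come from different annotations.

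Between genotypes, Ndn, Grb10 and Igf2r could be tested with limma on log2(FPKM + 1) in all 6 tables, 18 tests in all. At an adjusted p under 0.05 over all genes, limma called 0 of the 18, and 2 of the 18 had an unadjusted p under 0.05. The background was low as well: limma called 0.124% of all genes in HSCs and 0.108% in MPPs of the first cohort. It called 0.0276% and 0% in GFP-high and GFP-low HSCs, and 0% and 0.32% in GFP-high and GFP-low MPPs. A fit of the recovered reads with voom called 0 of 41 tests of the genes that had at least 5 reads in enough libraries, and 10 of these 41 had an unadjusted p under 0.05. Over all genes, the share with an unadjusted p under 0.05 was 7.09% to 16.6% in the limma fits of the 6 tables and 7.41% to 15.2% in the voom fits. The voom background of adjusted calls was 0.148% in HSCs and 0.227% in MPPs, then 0.00743% and 0% in GFP-high and GFP-low HSCs, and 0% and 0.332% in GFP-high and GFP-low MPPs.

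Igf2r in MPPs had the smallest limma p of the 18. WT libraries held 1.80, 1.74, 1.88 and 1.45 FPKM, and those labelled KO held 2.74, 3.50, 3.48 and 2.23 FPKM. All 4 libraries labelled KO were above all 4 WT libraries, which 4.43% of the genes with enough reads in that table also showed. The means were 1.72 ± 0.188 FPKM in WT and 2.99 ± 0.618 FPKM in labelled KO libraries (SD, n = 4 each), a ratio of 1.74, and an exact 2-sided permutation test gave p = 0.0286, the smallest that 4 against 4 allows. On the log2(FPKM + 1) scale the difference was 0.54 (SE 0.16, 95% interval 0.19 to 0.89), with a limma adjusted p of 0.144 (0.0678 to 0.330 over the alternatives). With voom it was 0.79 (SE 0.19) at an adjusted p of 0.102, so neither fit called it.
In the same comparison the summed level of 15 mitosis genes was 116 to 244 FPKM in WT and 266 to 410 FPKM in labelled KO libraries, with all 15 higher. The sum of 7 mast cell and basophil markers was 18.3 to 33.6 FPKM in WT and 37.7 to 88.7 FPKM in labelled KO libraries, with 6 of 7 higher. That of 10 erythroid markers, all higher, was 496 to 3993 FPKM in WT and 1666 to 7267 FPKM in labelled KO libraries. The sum of 14 HSC markers was 395 to 470 FPKM in WT and 310 to 366 FPKM in labelled KO libraries (6 higher). That of 10 MPP and lymphoid priming markers was 553 to 843 FPKM in WT and 438 to 514 FPKM in labelled KO libraries (5 higher). The part of any of these shifts in the Igf2r values was not tested. Airn, an imprinted RNA antisense to Igf2r, had 0.160 ± 0.129 FPKM in WT and 0.405 ± 0.123 FPKM in labelled KO MPPs (SD, n = 4 each), and without strand its reads in shared sequence cannot be told from those of Igf2r.
In the other 5 populations Igf2r overlapped between genotypes. The difference was 0.18 in HSCs, -0.03 and -0.06 in GFP-high and GFP-low HSCs, and -0.22 and 0.22 in GFP-high and GFP-low MPPs (log2, limma adjusted p from 0.648 to 0.961). The difference between the effects in HSCs and MPPs of the first cohort was -0.36 (95% interval -0.77 to 0.04, limma adjusted p = 0.67), so the effect was not shown to differ between them.

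Ndn had a higher mean in the labelled KO group in all 6 populations, by 0.13 in HSCs and 0.41 in MPPs on the log2 scale. The difference was 0.18 and 0.17 in GFP-high and GFP-low HSCs, and 0.09 and 0.31 in GFP-high and GFP-low MPPs. None of these differences passed the limma test, with adjusted p from 0.311 to 0.945.
In GFP-low MPPs the WT libraries held 8.52, 8.70 and 7.59 FPKM, and those labelled KO held 10.5, 11.6 and 9.53 FPKM. The groups did not overlap, as for 8.99% of genes with enough reads, and the difference was 0.31 (SE 0.13, 95% interval 0.03 to 0.60, limma adjusted p = 0.361). In GFP-high HSCs, 27.3, 23.8 and 27.6 FPKM in WT libraries stood against 32.0, 28.1 and 29.5 FPKM in labelled KO libraries. These groups did not overlap either, as for 8.14% of genes, and exact permutation cannot go below p = 0.1 with 3 against 3. In GFP-low MPPs the summed erythroid markers, 9 of 9 with a row higher in the mean and 3 of them called by limma, were 881 to 1373 FPKM in WT and 1876 to 2285 FPKM in labelled KO libraries. The sum of 14 HSC markers there was 519 to 565 FPKM in WT and 408 to 505 FPKM in labelled KO libraries. Their part in the Ndn values was not tested.
In MPPs of the first cohort the WT libraries were close together at 2.37, 2.13, 2.18 and 2.14 FPKM. Those labelled KO were spread, at 2.48, 2.35, 4.92 and 3.79 FPKM, and the gap rested on the replicates numbered 3 and 4 (exact permutation p = 0.0571).

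Grb10 leaned the opposite way in 4 of 6 populations. Its groups separated in GFP-low HSCs. There the WT libraries held 6.74, 5.84 and 8.12 FPKM, and those labelled KO held 5.28, 5.31 and 4.94 FPKM. All labelled KO libraries were below all WT libraries, which 6.87% of genes with enough reads showed in that direction. The ratio of means was 0.75 and the log2 difference -0.35 (SE 0.16, 95% interval -0.71 to 0.02, limma adjusted p = 0.605). In HSCs the difference was -0.15, in GFP-high and GFP-low MPPs it was -0.27 each, and in MPPs and GFP-high HSCs it was 0.07 and 0.15, all with overlapping groups.
Between GFP-high and GFP-low HSCs the effects on Grb10 differed by 0.50 (SE 0.21, 95% interval 0.04 to 0.96), with an unadjusted p of 0.0359 and a limma adjusted p of 0.999. Over 15 such differences of the 3 genes, 0 had an adjusted p under 0.05 and 1 had an unadjusted p under 0.05. Over all genes, limma called 0.0076% of these differences for HSCs minus MPPs and 0% for each of the other 4 pairs. The plot of genotype differences shows the 18 values.

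**Figure D3:**
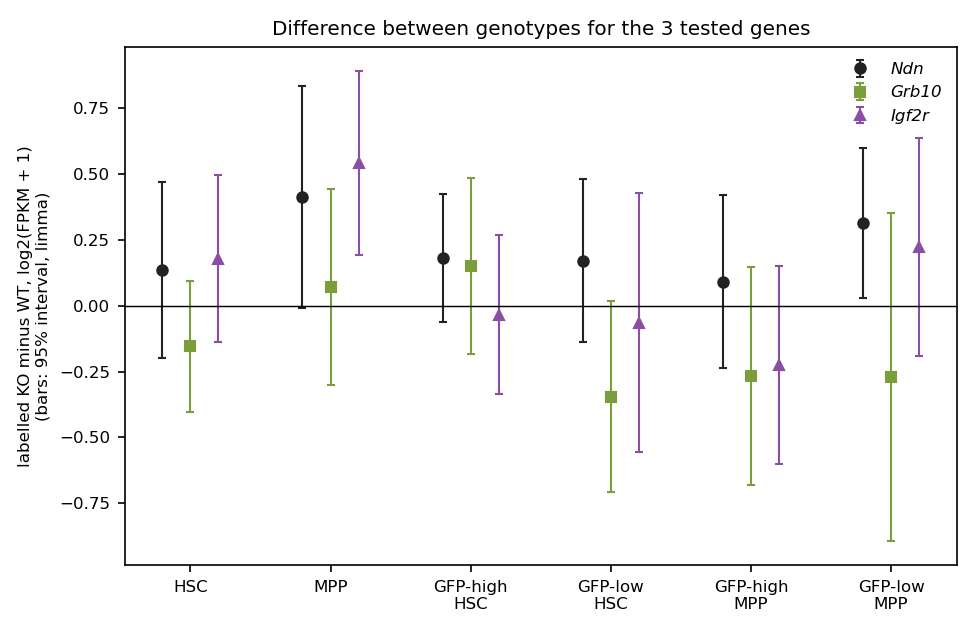
Difference of labelled KO minus WT in log2(FPKM + 1) for Ndn (circles), Grb10 (squares) and Igf2r (triangles) in the 6 populations, with 95% intervals from limma. All 6 values of Ndn lie above 0, between 0.09 and 0.41, and the interval of Igf2r in MPPs runs from 0.19 to 0.89; no value passed the adjusted threshold.

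At the Meg3 locus, Meg3 stayed under the filter of limma in every table and was followed by its reads. Its labelled KO libraries were all above the WT libraries in 3 of the 6 populations, all in the H2B-GFP cohort, and no fit called it.
The widest gap was in GFP-low HSCs. WT libraries held 0.0755, 0.0823 and 0.0480 FPKM, from 20, 19 and 9 reads. Those labelled KO held 0.303, 0.367 and 0.461 FPKM, from 66, 67 and 82 reads. The ratio of means was 5.50, and the voom log2 difference was 2.38 (SE 0.56) with an unadjusted p of 0.00114 and an adjusted p of 0.332. Of the genes with enough reads there, 7.4% separated in this direction, and the exact permutation p was 0.1, the smallest possible.
In GFP-high HSCs the WT libraries held 0.506, 0.281 and 0.479 FPKM and those labelled KO 0.525, 1.29 and 0.782 FPKM. In GFP-high MPPs the values were 0.136, 0.127 and 0.247 FPKM in WT and 0.486, 0.476 and 0.255 FPKM in labelled KO libraries, where 6.83% of genes separated in this direction. The lowest labelled KO library and the highest WT library lay close together in both. The voom log2 differences were 1.01 (adjusted p = 0.329) and 1.24 (adjusted p = 0.594).
In HSCs of the first cohort, WT libraries held 0.393, 0.157, 0.157 and 0.238 FPKM and those labelled KO 0.335, 0.310, 0.480 and 0.444 FPKM. The groups overlapped through the first WT library, with a voom log2 difference of 0.82 (adjusted p = 0.360). MPPs of that cohort leaned the opposite way. Their WT libraries held 0.764, 0.173, 0.210 and 0.448 FPKM and those labelled KO 0.257, 0.0988, 0.0922 and 0.351 FPKM, overlapping, with a difference of -1.01 (adjusted p = 0.396). In GFP-low MPPs both groups lay at 0.0325 to 0.154 FPKM, with a difference of 0.32 (adjusted p = 0.885). Whether the effect on Meg3 differs between populations was not tested.

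Meg3 is also abundant in cells other than blood cells, so 16 stroma and endothelium markers were read beside it. Their summed level in GFP-low HSCs was 2.89 to 4.75 FPKM in WT and 5.36 to 9.46 FPKM in labelled KO libraries, with 11 of the 14 that have a row higher in the mean. In HSCs it was 3.95 to 5.82 and 5.87 to 7.43 FPKM (13 of 16 higher). In MPPs it was lower in labelled KO libraries (7.74 to 11.5 and 5.33 to 6.74 FPKM), with 6 of 15 higher. The largest fall there was in Pdgfrb (5.20 and 2.71 FPKM). In GFP-high HSCs (3.22 to 4.28 and 3.60 to 6.64 FPKM, 10 of 13 higher) the ranges overlapped. They also overlapped in GFP-high MPPs (3.24 to 5.61 and 3.79 to 5.45 FPKM, 12 of 14 higher). Lum and Col3a1 had no row in the GFP-low HSC table (taken as 0), and with them 8 of the 16 stayed under 1 FPKM in each library there. Others had a higher labelled KO mean there: Adipoq had 0.0659 FPKM in WT and 1.48 FPKM in labelled KO libraries, Plvap 0.372 and 1.09 FPKM, Acta2 0.134 and 0.77 FPKM, and Bglap 0 and 0.643 FPKM.
Markers of blood cells moved with these groups too. In GFP-low HSCs the summed erythroid markers were 828 to 855 FPKM in WT and 1318 to 2400 FPKM in labelled KO libraries, with 9 of 9 higher in the mean. The sum of MPP and lymphoid priming markers was 12.2 to 18.8 FPKM in WT and 25.0 to 31.8 FPKM in labelled KO libraries there (7 of 9 higher), and that of mature neutrophil markers was 3621 to 3960 and 2063 to 28830 FPKM (8 of 8 higher).
In GFP-high MPPs, where Meg3 and Peg3 separated, the erythroid sum was 744 to 990 FPKM in WT and 1055 to 1956 FPKM in labelled KO libraries (8 of 9 higher). The macrophage sum was 16.6 to 21.9 and 22.8 to 33.8 FPKM (9 of 9 higher), and the neutrophil sum 4171 to 5684 and 3860 to 23910 FPKM (8 of 8 higher). The part of any of these cells in the Meg3 and Peg3 values was not tested.

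Rian (chr12:109603940-109661716, plus strand), the host of C/D box snoRNAs downstream of Meg3, had a higher labelled KO mean in all 6 populations but at 0 to 0.203 FPKM. In GFP-high HSCs the WT libraries held 0.0520, 0.0323 and 0.0376 FPKM and those labelled KO 0.0640, 0.130 and 0.0533 FPKM. They did not overlap, yet rested on 12 to 41 reads, with a voom log2 difference of 0.93 (SE 0.58, adjusted p = 0.613). Mirg (chr12:109729764-109749460, plus strand) gave 31 reads in the 4 labelled KO HSC libraries (18, 0, 7 and 6) and 2 in the 4 WT libraries, all in the last replicate. In MPPs it gave 14 reads in labelled KO and 23 in WT libraries. The voom log2 difference in MPPs was -2.02 (SE 1.22, adjusted p = 0.464), and in HSCs Mirg had too few reads for that fit.
Across the 40 libraries, with group means removed, Meg3 and Rian gave Pearson's r = 0.563 (permutation p = 0.00026, adjusted over 3 pairs 0.00078) and Spearman's rho = 0.465 (permutation p = 0.0029). Without the 2 libraries farthest from the median of Meg3, r was 0.446. These p-values take the libraries as independent. In the H2B-GFP cohort, libraries of a genotype with the same number in different tables often deviated alike. Over all tested genes their r was -0.043 to 0.398, against -0.302 to 0.092 for different numbers. In the first cohort these ranges were -0.217 to 0.341 and -0.292 to 0.283. The p-values may therefore be too small. For Rian itself, the first replicate of each group of the first cohort lay above its group mean. The gap was 0.13 in WT HSCs, 0.11 in labelled KO HSCs, 0.12 in WT MPPs and 0.10 in labelled KO MPPs on the log2 scale. Within the first cohort r was 0.689 (n = 16, permutation p = 0.0034, adjusted 0.01) and rho 0.685 (permutation p = 0.0048). Within the shallower H2B-GFP cohort r was 0.358 (n = 24, permutation p = 0.086, adjusted 0.26) and rho 0.245 (permutation p = 0.25), and r was -0.05 without the 2 farthest libraries, so there it rests on those. For Mirg, taken as 0 where it had no row, no relation was detected, with r = -0.233 for Meg3 (rho = -0.154, permutation p = 0.15 and 0.34, adjusted 0.22) and r = -0.036 for Rian (rho = -0.056, permutation p = 0.82 and 0.73, adjusted 0.82). Without the 2 farthest libraries these were -0.165 and 0.072.
The locus holds 89 annotated miRNA and snoRNA genes in the annotation of the first cohort and 79 in that of the H2B-GFP cohort, of which 1 to 7 had a row in a table. The one with reads throughout the H2B-GFP cohort was Mir1906-1, which lies inside Meg3. In GFP-low HSCs it held 8, 11 and 1 reads in WT libraries and 19, 25 and 18 reads in labelled KO libraries, without overlap. In the other 3 populations its groups overlapped, at 12 to 38 reads in GFP-high HSCs, 7 to 19 in GFP-high MPPs and 2 to 10 in GFP-low MPPs. These are reads of longer RNA over that position, and cannot be told from reads of Meg3.

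**Figure D4:**
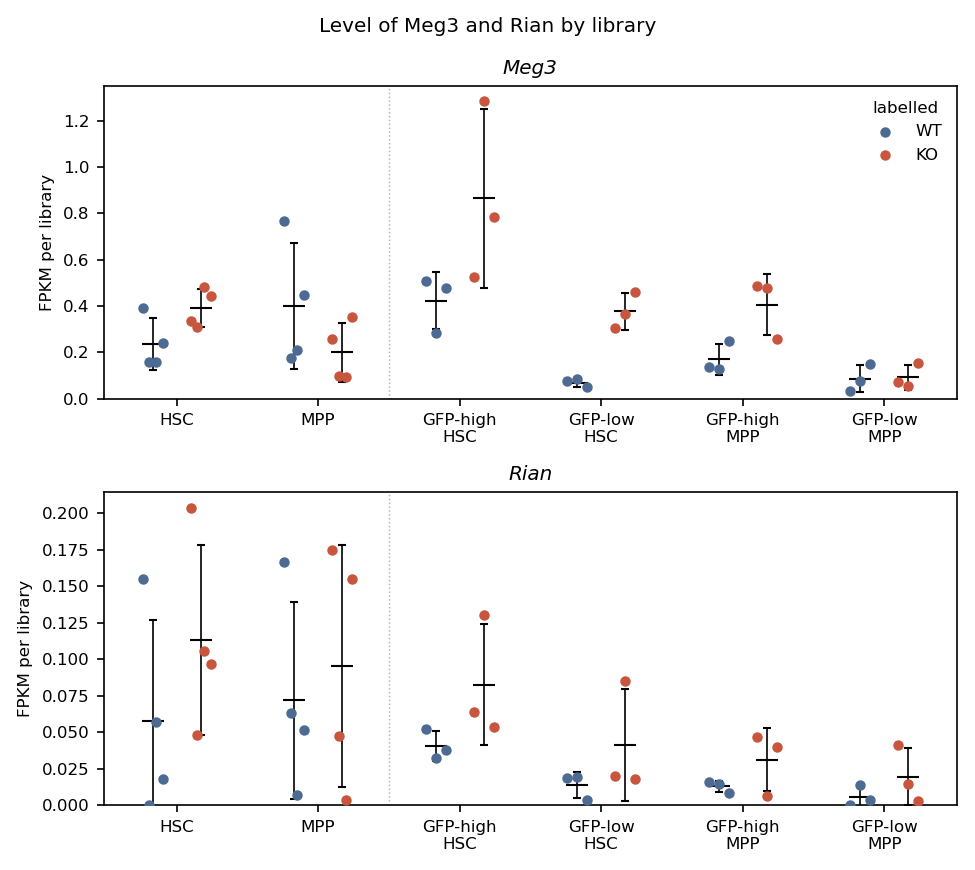
FPKM per library of Meg3 and Rian in the 6 populations (points; blue labelled WT, red labelled KO; black bars mean ± SD, with the lower end cut at 0; n = 4 per group left of the dotted line and n = 3 right of it). In GFP-low HSCs the labelled KO libraries of Meg3 lie at 0.303 to 0.461 FPKM above WT libraries at 0.0480 to 0.0823 FPKM, and in MPPs of the first cohort the order of the means is reversed.

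**Figure D5:**
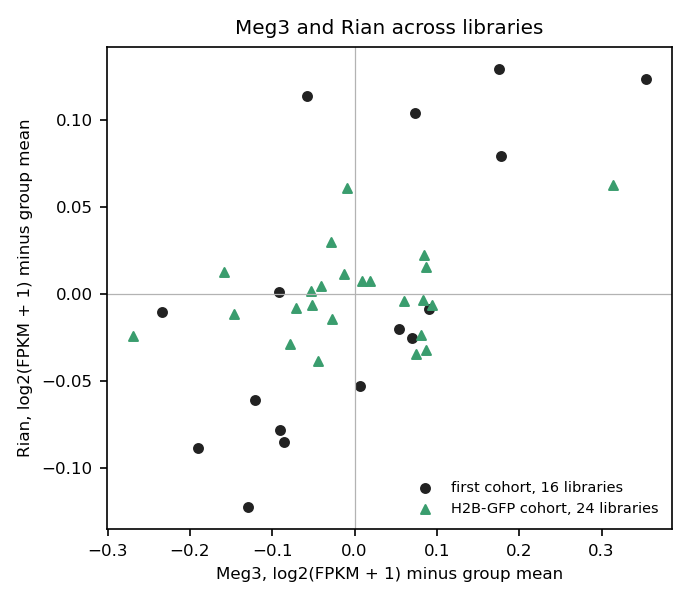
Deviation of each library from its group mean, in log2(FPKM + 1), for Meg3 (x axis) and Rian (y axis), in 16 libraries of the first cohort (circles) and 24 of the H2B-GFP cohort (triangles). Over all 40 libraries r is 0.563, and the H2B-GFP libraries lie nearer to 0 for Rian.

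Near the limit of detection, H19, Mest, Peg3 and Plagl1 were tested with voom where they had enough reads, and none passed.
Peg3 (chr7:6703892-6730431, minus strand), a zinc finger gene expressed from the paternal copy, was at 0 in all 4 WT MPP libraries. Those labelled KO held 0, 32, 7 and 34 reads. In GFP-high MPPs the WT libraries held 5, 8 and 0 reads and those labelled KO 15, 35 and 27, without overlap (0.0242 ± 0.0240 and 0.163 ± 0.0683 FPKM, SD, n = 3 each). The voom log2 difference there was 3.26 (SE 1.01, unadjusted p = 0.00774, adjusted p = 0.584). In GFP-low MPPs the order was reversed, with 1, 3 and 3 reads in WT libraries and 0 in those labelled KO. Among genes with enough reads, which Peg3 was not in that table, 9.11% separated in that direction. In HSCs the WT libraries held 4, 2, 3 and 4 reads and those labelled KO 40, 19, 0 and 22, which overlap through the third labelled KO library. In GFP-high HSCs (6 to 42 reads) and GFP-low HSCs (0 to 13 reads) the groups overlapped.
Plagl1 (chr10:13060504-13131694, plus strand), a zinc finger gene of the paternal copy, held 12, 0, 0 and 0 reads in WT HSCs and 7, 10, 60 and 29 in those labelled KO. The groups overlapped through the first WT library, and the voom log2 difference was 3.97 (SE 1.38, unadjusted p = 0.0129, adjusted p = 0.354). In GFP-high HSCs it held 1, 2 and 12 reads in WT and 30, 1 and 14 in labelled KO libraries. In GFP-low HSCs most reads came from a single WT library with 22.
H19 (chr7:142575529-142578143, minus strand), the maternally expressed RNA of the Igf2 locus, never passed 13 reads in a library. Mest (chr6:30723547-30748465, plus strand), expressed from the paternal copy, never passed 28 reads, and overlaps Copg2 on the opposite strand, which lay at 5.803 to 12.4 FPKM. All groups of H19 and Mest overlapped.
Counting all members with a row, labelled KO libraries were all above WT libraries for 0 of 10 in HSCs, where 2.94% of genes with enough reads separated in this direction. The count was 1 of 9 in MPPs (Igf2r, background 4.43%), 3 of 10 in GFP-high HSCs (Meg3, Rian and Ndn, background 8.14%) and 1 of 9 in GFP-low HSCs (Meg3, background 7.4%). It was 2 of 8 in GFP-high MPPs (Meg3 and Peg3, background 6.83%) and 1 of 7 in GFP-low MPPs (Ndn, background 8.99%). They were all below in 1 of 9 in GFP-low HSCs (Grb10, background 6.87%) and 1 of 7 in GFP-low MPPs (Peg3, background 9.11%). The members are counted here whether or not they had enough reads, which the background requires. Of 19 exact permutation tests of a member in a table of the first cohort, 1 gave an unadjusted p under 0.05, that of Igf2r in MPPs, and the 34 in the H2B-GFP cohort could not go below 0.1.

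Among related genes, of 68 other imprinted genes, 28 to 34 could be tested with limma in a table and 0 passed in any. The median log2 difference of labelled KO minus WT was -0.10 in HSCs and -0.06 in MPPs, -0.01 and -0.10 in GFP-high and GFP-low HSCs, and 0.04 and -0.09 in GFP-high and GFP-low MPPs. Over all genes it lay between -0.0042 and 0.0043 in each table. Those with an unadjusted p under 0.05 numbered 6 of 30 in HSCs and 6 of 28 in MPPs, then 4 of 33 and 4 of 32 in GFP-high and GFP-low HSCs, and 3 of 34 and 4 of 30 in GFP-high and GFP-low MPPs. Over all genes that share was 10.1%, 16.6%, 10.4%, 8.57%, 7.09% and 12.3% in the same order. The related genes named below were picked by a small p in these same populations, so a shared sign is partly built in. The share of all genes with the same sign in all 6 populations is not given here.
Tspan32, a tetraspanin gene near H19 and Igf2, had a lower labelled KO mean in 6 of 6 populations, by 0.15 to 0.54 on the log2 scale. In GFP-low MPPs it had 134 ± 7.09 FPKM in WT and 91.5 ± 3.32 FPKM in labelled KO libraries (SD, n = 3 each), with a limma adjusted p of 0.0785 and a voom adjusted p of 0.0477. That was the 1 call of voom among the 3 lists of related genes, in the table where the erythroid sum of the labelled KO libraries lay above that of WT and the HSC marker sum below, and the part of those cells in it was not tested. Cd81, another tetraspanin of that region, had a higher labelled KO mean in 6 of 6 populations, by 0.13 to 0.27, as in GFP-high HSCs (130 ± 5.10 and 158 ± 9.30 FPKM, SD, n = 3 each, limma adjusted p = 0.367). Impact, a regulator of the stress kinase GCN2, was lower in the mean in 6 of 6 populations, from 16.04 ± 0.586 to 10.9 ± 1.91 FPKM in MPPs (SD, n = 4 each, limma adjusted p = 0.102). Phlda2 was also lower in 6 of 6. Peg13, Slc22a18, H13, Gnas and Blcap differed in sign between populations.
Of 39 genes of IGF and insulin signalling with mTOR, 29 to 32 could be tested in a table and limma called 0, as did voom. With an unadjusted p under 0.05 there were 4 in HSCs and 3 in MPPs, 2 and 3 in GFP-high and GFP-low HSCs, and 0 and 2 in GFP-high and GFP-low MPPs. Their median log2 difference lay between -0.03 and 0.04 in the 6 tables. Foxo3, a transcription factor held back by insulin signalling and needed for HSC quiescence, had a higher labelled KO mean in 6 of 6 populations, by 0.09 to 0.57. In GFP-low HSCs it had 11.4 ± 0.484 FPKM in WT and 17.6 ± 2.60 FPKM in labelled KO libraries (SD, n = 3 each, limma adjusted p = 0.348). Grb2, an adaptor that links receptors to Ras, was also higher in the mean in 6 of 6, from 12.7 ± 0.772 to 18.7 ± 1.93 FPKM in GFP-low HSCs (SD, n = 3 each, limma adjusted p = 0.346). Akt1, Rheb, Pik3cd, Mtor, Igfbp4, Akt2, Rps6kb1 and Tsc1 differed in sign between populations.
Of 17 genes of imprint maintenance, 14 or 15 could be tested and neither limma nor voom called any, with 0 at an unadjusted limma p under 0.05 in HSCs, 4 in GFP-low MPPs and 2 in each of the other 4 populations. Dnmt1, the enzyme that copies DNA methylation after replication, had a lower labelled KO mean in all 4 populations of the H2B-GFP cohort. In GFP-low MPPs it had 22.9 ± 0.926 FPKM in WT and 15.9 ± 0.758 FPKM in labelled KO libraries (SD, n = 3 each), a log2 difference of -0.50 (limma adjusted p = 0.109). The difference was -0.43 and -0.55 in GFP-high and GFP-low HSCs, and -0.50 in GFP-high MPPs (limma adjusted p = 0.280, 0.346 and 0.460). In the first cohort it was -0.09 in HSCs and 0.01 in MPPs. Uhrf1, which brings DNMT1 to newly copied DNA, differed by -0.57 and -0.35 in GFP-high and GFP-low HSCs, and by -0.55 and -0.58 in GFP-high and GFP-low MPPs (limma adjusted p from 0.220 to 0.546), and by -0.17 and 0.36 in HSCs and MPPs of the first cohort. Both are most abundant in dividing cells. Of 15 mitosis genes, 0 and 7 had a higher labelled KO mean in GFP-high and GFP-low HSCs, and 3 and 11 in GFP-high and GFP-low MPPs. The part of cell division in these values was not tested. Dnmt3a and Dnmt3b were lower in the mean in 6 of 6 populations, while Arid4a and Smchd1 differed in sign.

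Over the 40 libraries, with table means removed and among 9336 genes tested in all 6 tables, the genes whose level followed Ndn most closely were Fads1 (r = 0.666, rho = 0.696), Tspan6 (r = 0.66, rho = 0.689) and Gem (r = 0.635, rho = 0.631). Grb10 was followed by Nup205 (r = 0.659, rho = 0.71), Slc39a10 (r = 0.634, rho = 0.521) and Mphosph8 (r = 0.599, rho = 0.601). Igf2r was followed by Cpd (r = 0.682, rho = 0.626), Bex4 (r = 0.666, rho = 0.576) and Hdgf (r = 0.658, rho = 0.646). Without the 2 libraries farthest from the median of the member, r for these 9 genes was 0.518 to 0.701. These are descriptions, given with no p, and the libraries of a table share its scaling. Among themselves the 3 members were unlike, with r = 0.273 for Ndn and Igf2r, -0.16 for Ndn and Grb10, and -0.099 for Grb10 and Igf2r.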

How the data were processed

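Levels were the deposited FPKM values, which the authors computed, 1 table for each of 6 populations and 40 libraries in all, made with SMART-Seq2 and Nextera XT from polyA RNA, per the labels' protocols. The submitters' processing notes name STAR, DESeq2, HOMER and mm10, with no role or version. In every table the median ratio to the genes' geometric mean was identical over libraries, so values were scaled within a table, and HSC and MPP tables were set side by side without a test. Whole reads were recovered (within 0.01 of a whole number) for all but 1 gene of each table (26639 of 26640 in HSCs, for example). Coordinates are from GENCODE (mm10) and promoters and miRNAs from RefSeq (GRCm38.p6). Strand is not stated.

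Within a table, labelled KO and WT were compared with limma 3.58.1 (R 4.3.3) on log2(FPKM + 1) with an intensity trend, for genes at 1 FPKM or more in at least 4 (first cohort) or 3 (H2B-GFP cohort) libraries, 2-sided, with Benjamini-Hochberg adjustment over all tested genes. A fold on this scale understates the change of low genes. Voom on recovered reads (5 or more in as many libraries), chosen after seeing the data, covered lower genes. Permutation tests (SciPy 1.17.1) were 2-sided, exact for genotypes and with 100000 resamples for pairs of genes. Exact p-values of members were not adjusted. On simulated data limma recovered 95% of genes changed by 1 on the log2 scale in HSCs and 64% in GFP-high MPPs. The changed genes were drawn from those with a mean of log2(FPKM + 1) above 2, which Igf2r did not reach in any table. These shares therefore do not describe lower genes or smaller changes. Replicates were no repeat deposits (chi-square per gene 7 or more). The members, lists and rules were chosen with earlier results of these data known. Named related genes are the 3 with the smallest p per list and table among those with a mean of log2(FPKM + 1) of at least 2, and 1 of them is not reported here.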

Additional observations from a re-analysis of the deposited data

Results flagged for a closer look

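In 36 groups of 4 libraries, 4 had a library far from the other 3 by Dixon's test, which flags about 1 in 20 groups by chance. Grb10 was at 2.77 FPKM in the first WT MPP library and at 1.81 to 1.97 FPKM in the others. H19 was at 0.208 FPKM (13 reads) in the third WT MPP library and at 0 to 0.0183 FPKM in the others. Plagl1 was at 0.0649 FPKM (12 reads) in the first WT HSC library, and Mirg at 0.00946 FPKM (2 reads) in the last, with 0 in the other 3 each time. Peg3 went opposite ways in 2 populations. In GFP-high MPPs its labelled KO libraries, with a mean of 0.163 FPKM, were all above WT, and in GFP-low MPPs they were all at 0, below WT libraries with 1 to 3 reads. That difference was not tested.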

How the results depend on the processing

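Of the members tested in each, 0 were called in 91 of 91 alternative fits (85 with limma, which tested Ndn, Grb10 and Igf2r except in 11 with no filter, and 6 with voom), and of 273 alternative log2 differences of Ndn, Grb10 and Igf2r, 269 kept their direction and 0 crossed the threshold. Those of Ndn kept theirs in 76 of 76. All 40 ratios between tables under the common scalings moved by less than the spread between libraries. Igf2r turned to 0.018 in GFP-high HSCs with libraries rescaled to 1 total. In GFP-low HSCs it ranged from -0.19 to 0.076 with a library left out (0.02 without WT replicate 3, 0.076 without KO replicate 2). Grb10 in GFP-low MPPs ranged from -0.49 to 0.0057, the latter without KO replicate 1. Meg3 in GFP-low MPPs ranged from -0.27 (without WT replicate 1) to 0.78, and was -0.12 without KO replicate 3. In the other tables the Meg3 log2 difference kept its direction with each library left out, and at 2.20 to 2.55 in GFP-low HSCs. In the H2B-GFP cohort alone, r was 0.358 for Meg3 and Rian, 0.093 for Meg3 and Mirg and 0.135 for Rian and Mirg. For each of these changes the cause was not tested. The count of all genes called moved more. In HSCs (17 genes) it was 2 with no filter, 6 rescaled, 33 with array weights, 28 with voom and 9 to 17 with a library left out (12 or fewer without any but WT replicate 3 or KO replicate 4). In MPPs (15) it was 7 at a pseudocount of 0.1, 0 with no filter, 247 with weights, 43 with voom and 0 to 212 with a library left out (71 without WT replicate 3, 212 without KO replicate 4, 11 without WT replicate 1, and 0 to 6 without each of the others). In GFP-high HSCs (3) it was 5 with weights, 1 with voom and 0 to 1 with a library left out. In GFP-low HSCs (0) it was 3 with weights and 0 to 7 with a library left out (7 without KO replicate 1), and in GFP-high MPPs (0) it was 0 to 2 (2 without KO replicate 1). In GFP-low MPPs (34) it was 2 with no filter and 0 to 39 with a library left out (17 or fewer without any but KO replicate 1). With no filter the difference of effects was called for 5 genes for HSCs minus MPPs (1) and 1 for GFP-high minus GFP-low MPPs (0). Same-numbered WT and labelled KO libraries did not all deviate together in any table (r from -0.116 to 0.285), so the numbers were not taken as pairs within a table. Across tables, libraries of a genotype with the same number correlated at r of -0.217 to 0.341 between HSCs and MPPs of the first cohort and -0.043 to 0.398 in the H2B-GFP cohort; the labels do not say whether they share a mouse, and the tests between tables took them as independent. With the replicate number as a block, limma called 10 genes in HSCs, 137 in MPPs, 52 in GFP-low MPPs and 0 for the difference of effects of HSCs minus MPPs, and 0 of the members in any table. Depth limits the 6 genes under 0.561 FPKM, where a few reads set the order of the groups.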
